A study of Mus musculus with 125 samples.

Results

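The GATA factors are a family of 6 transcription factors, and all 6 of their genes, Gata1 to Gata6, were followed here through endothelial nuclei of mouse organs. Members were taken by gene symbol, 6 of 21887 protein-coding genes, and were measured in 2 ways. Open chromatin was read from peaks that overlapped a gene or lay within 50 kb of it in 66 ATAC-seq libraries. Transcripts were read as unique molecular identifiers (UMIs, 1 per captured RNA molecule) in brain cell barcodes of 5 single-cell libraries. A barcode counted as endothelial where it held at least 200 genes, at most 10% mitochondrial UMIs and at least 3 of the 6 genes Cdh5, Pecam1, Egfl7, Esam, Tie1 and Kdr.

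Of the 66 ATAC-seq libraries of nuclei, 37 were labelled endothelial and 29 input. P6 and adult libraries covered 6 organs (liver, lung, kidney, heart, retina and brain), and the E12 ones covered trunk, heart and brain. There were 12 adult, 14 P6 and 11 E12 endothelial libraries, and 10, 16 and 3 inputs. Adult mice were 2 months old. Per the protocol, animals of all groups received tamoxifen at 0.015 mg/kg: adults 7 days before collection, pups at P1 and P3, and embryos through the dam at E10.5. Tissues without GFP in their vessels were not taken further. The protocol text places collection of the P6 group at P7 and of the E12 group at E12.5. The transgenes behind the GFP, the strain and the step that separated endothelial from input nuclei are not given in the sources used here. The single-cell libraries, 1 per age, came from whole embryonic brain (E9.5, E12.5 and E16.5) or from cortex (P8 and adult), enriched with beads against CD31. The labels do not say whether replicates came from separate animals, so the p-values measure only the spread between these libraries.

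GATA factors bind DNA through zinc fingers at sites built around the letters GATA. Gata1, Gata2 and Gata3 are best known from blood, where Gata1 drives red cells and megakaryocytes, Gata2 keeps stem and progenitor cells and serves mast cells, and Gata3 directs T cells. Gata4, Gata5 and Gata6 are best known from heart, gut and other organs of mesoderm and endoderm. In endothelium Gata2 is broadly expressed, Gata4 is known as a regulator of the sinusoidal endothelium of the liver and of the endocardium, and Gata3 and Gata6 are known from large vessels.

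The RefSeq promoter entries at hand (GRCm38.p6, the build called mm10) gave starts for 4 of the 6 genes and none for Gata4 and Gata6. The starts given for Gata1 (chrX:7967910) and Gata3 (chr2:9878600) lie inside the listed genes, chrX:7959260-7976663 and chr2:9857078-9887953. Other starts of these genes were not examined. The 250 bases before the starts of Gata2, Gata3 and Gata5 are shown because peaks at these starts are described next: common to all ages at the downstream Gata2 start, and less common with age at Gata3 and Gata5. Each is written 5′ to 3′ on the gene's strand, with CG pairs in capitals. The stretches are chr6:88193641-88193890 (plus strand) before the upstream start of Gata2, chr6:88198414-88198663 (plus strand) before its downstream start, chr2:9878601-9878850 (minus strand) before Gata3 and chr2:180334680-180334929 (minus strand) before Gata5.
Gata2, upstream start: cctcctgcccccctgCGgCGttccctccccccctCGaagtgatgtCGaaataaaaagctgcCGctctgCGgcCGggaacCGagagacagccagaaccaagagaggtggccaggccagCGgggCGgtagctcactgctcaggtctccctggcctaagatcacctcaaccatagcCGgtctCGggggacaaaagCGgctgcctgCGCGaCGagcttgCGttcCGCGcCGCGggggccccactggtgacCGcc
Gata2, downstream start: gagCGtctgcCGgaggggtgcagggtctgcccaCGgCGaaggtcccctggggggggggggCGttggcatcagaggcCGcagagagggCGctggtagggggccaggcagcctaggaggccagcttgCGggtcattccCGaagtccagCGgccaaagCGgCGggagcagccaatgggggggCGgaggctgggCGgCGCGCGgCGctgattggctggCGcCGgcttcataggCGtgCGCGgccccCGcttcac
Gata3: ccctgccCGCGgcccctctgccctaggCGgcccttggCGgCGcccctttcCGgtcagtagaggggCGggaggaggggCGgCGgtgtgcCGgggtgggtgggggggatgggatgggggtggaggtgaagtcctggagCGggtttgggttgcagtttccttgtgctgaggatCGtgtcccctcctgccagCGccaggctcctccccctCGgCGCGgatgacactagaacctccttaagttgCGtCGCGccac
Gata5: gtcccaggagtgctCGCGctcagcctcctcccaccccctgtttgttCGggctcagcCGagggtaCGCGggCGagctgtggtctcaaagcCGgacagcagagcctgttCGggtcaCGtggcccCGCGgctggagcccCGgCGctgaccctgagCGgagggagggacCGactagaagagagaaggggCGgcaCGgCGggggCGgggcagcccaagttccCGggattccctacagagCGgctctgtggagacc

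These stretches were rich in CG pairs. The upstream and downstream starts of Gata2 held 22 and 24, Gata3 held 19 and Gata5 held 22. Of 32841 RefSeq promoters of the same length, 85.2%, 88.0%, 80.3% and 85.2% held fewer. The stretch before Gata1 (chrX:7967911-7968160, minus strand) held 2, and 18.8% of promoters held fewer. The GATA hexamer was searched on both strands as AGATAA, as AGATAG, then as TGATAA, and last as TGATAG. None of the 5 stretches held any of these 4 forms, and 8717 of the 32841 promoters (26.5%) held at least 1. No match says only that these letters are not in these windows.

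Peaks over the starts, from 250 bases before to 50 after, divided the genes. Peak size is given in ppm, the part of a library's summed peak signal (mean pileup times length), set to 1000000, that fell in the peak. The downstream start of Gata2 had a peak in 11 of 11 E12, 14 of 14 P6 and 12 of 12 adult endothelial libraries. Its medians were 19.3, 20.9 and 24.6 ppm, with a lowest adult value of 7.27 ppm and a highest of 61.2 ppm. The inputs had that peak in 3 of 3, 15 of 16 and 5 of 10 libraries. The upstream start of Gata2, which is known as the start used in blood, had a peak in 2 of 11 E12, 3 of 14 P6 and 0 of 12 adult endothelial libraries.

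Gata3 and Gata5 had peaks over their starts in all E12 endothelial libraries and in few or none of the adult ones. The Gata3 start had a peak in 11 of 11 E12, 4 of 14 P6 and 2 of 12 adult endothelial libraries, with E12 values from 17.4 to 75.5 ppm and a median of 58.0 ppm. The Gata5 start had a peak in 11 of 11, 9 of 14 and 0 of 12, with E12 values from 4.52 to 34.1 ppm and a median of 11.2 ppm. The inputs followed the same order: 3 of 3 E12, 5 of 16 P6 and 2 of 10 adult inputs for Gata3, and 3 of 3, 8 of 16 and 3 of 10 for Gata5. Peaks called per library also fell with age, from 39096 to 120456 in E12 endothelial libraries to 19464 to 47334 in adult ones, and the part of this in the counts at starts was not tested. The Gata1 start used here, which lies inside the gene, had no peak in any of the 37 endothelial libraries and had 1 in 1 of 3 E12 inputs. Upstream of the Gata3 start a stretch was common to all libraries: each of the 66 libraries had a peak whose far end lay between 1249 and 1358 bp before the start. In the 12 adult endothelial libraries the near edge of that peak lay 776 to 951 bp before the start. In the 11 E12 endothelial libraries the near edge lay -450 to 930 bp before it, negative values being past the start. In most of these E12 libraries that 1 peak also covered the start. Their Gata3 ppm given above is then the signal of the whole peak, not of a separate peak at the start.

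**Figure D1:**
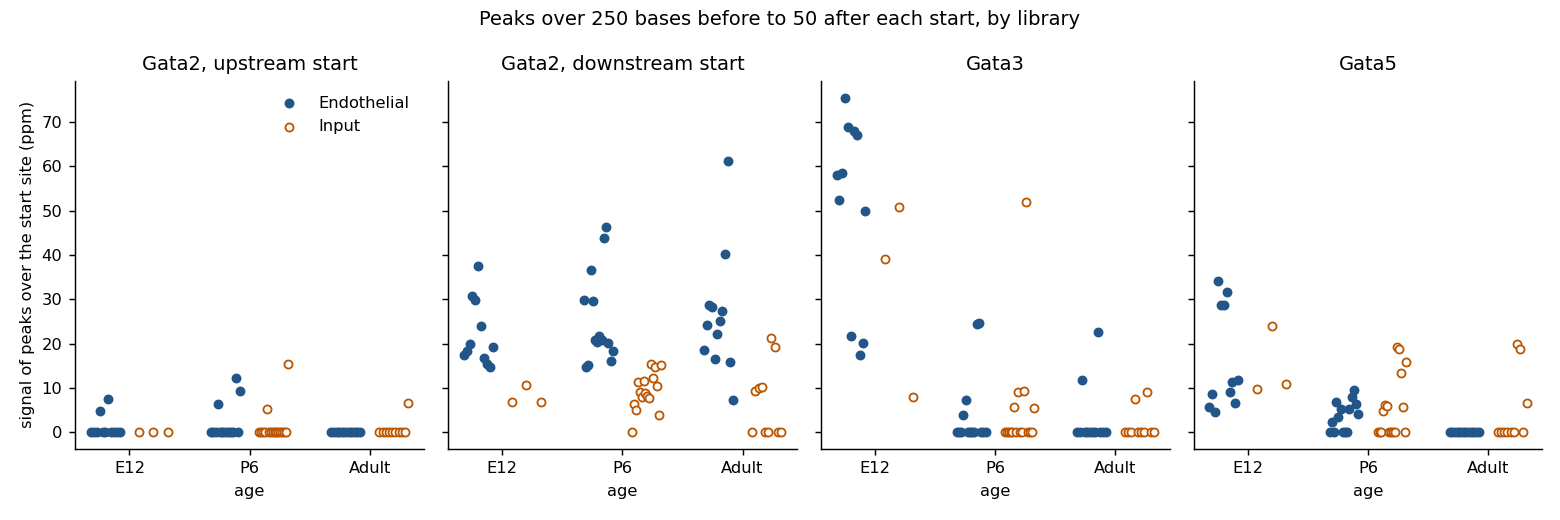
Signal of peaks over the start sites (ppm, vertical axis) in each library at E12, P6 and in adults; filled points are endothelial and open points input libraries. Values are those of whole peaks, which at the Gata3 start can reach far beyond it. The downstream Gata2 start has a peak in all 37 endothelial libraries, while the Gata3 and Gata5 starts have one in 11 of 11 E12 and in 2 and 0 of 12 adult endothelial libraries.

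For the comparisons, the ppm of all peaks in the gene and its 50 kb flanks were summed (the window of a gene), and limma was run on log2(ppm + 5) over all 21887 genes with Benjamini-Hochberg adjustment. A difference was called at an adjusted p under 0.05 and a size of at least 1 on that log2 scale, which understates changes of low windows. The windows also held other genes: Pcsk1n, Eras, Hdac6 and Glod5 beside Gata1, Dnajb8 beside Gata2, Taf3 beside Gata3, Fdft1 and Neil2 beside Gata4, Rbbp8nl beside Gata5 and none beside Gata6. Tags kept per library, in units of 1 M, ran from 10.1 to 59.1. As a check of the labels, the windows of 8 endothelial genes were called higher in endothelial than in input libraries for 5, 6 and 6 genes in adults, P6 and E12, where 2.03%, 1.62% and 2.32% of all windows were called higher. The retina stood apart: the summed windows of 8 photoreceptor and retinal neuron genes were 3160 to 3360 ppm in its adult endothelial libraries and 3130 to 3840 ppm in its inputs, against 875 to 1280 ppm in endothelial libraries of the other organs, and only 1.04% of all windows differed between retina endothelial and input at either age. In bulk libraries, fewer nuclei of a type and less open chromatin per nucleus cannot be told apart.

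Gata2 was the member whose window was called higher in endothelial than in input libraries at all 3 ages. Its adult endothelial windows were 328 and 493 ppm in lung, 201 and 240 ppm in heart, 195 and 230 ppm in kidney, 170 and 174 ppm in brain, 161 and 164 ppm in liver, and 117 and 54.2 ppm in retina. The adult inputs were 124 and 141 ppm in lung, 65.2 ppm in heart, 9.86 and 50.5 ppm in kidney, 29.6 ppm in brain, 0 and 0 ppm in liver, and 30.6 and 26.0 ppm in retina. Within each organ, each adult endothelial library lay above each adult input. At P6 the endothelial values ran from 85.4 through a median of 150 to 369 ppm and the inputs from 11.4 through 50.0 to 94.2 ppm. At E12 the endothelial values ran from 144 through 164 to 178 ppm, and the 3 inputs were 67.1, 56.8 and 32.9 ppm.

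The Gata2 window was called higher in endothelial than in input libraries by 2.49 in adults (SE 0.178, limma adjusted p = 1.33e-13), 1.74 at P6 (SE 0.150, adjusted p = 7.84e-12) and 1.61 at E12 (SE 0.263, adjusted p = 1.84e-05), each as a log2 difference averaged over organs. It was higher in 6 of 6 adult organs, 6 of 6 P6 organs and 3 of 3 E12 sites. The adult average includes liver, where both inputs were at 0 ppm. The size of 2.49 thus depends in part on the ppm added before the logarithm. A change of size with age is therefore not read from these averages. An exact two-sided permutation test within organs gave p = 8.57e-05, 6.94e-07 and 0.01, each the smallest that these designs allow. Gata2 was 1 of 2 members called in adults and the single member called at P6 and at E12, where 9.59%, 7.22% and 5.69% of all windows were called. The other called member was Gata5, lower in adult endothelial libraries by 1.59 (adjusted p = 0.000128). That Gata5 difference was -0.99 with a pseudocount of 20 ppm and -0.61 in windows of 10 kb, and was not called in either. The 4 members not called in any of these 3 comparisons had differences between -0.53 and 0.86.

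Organ by organ, the own-input difference of Gata2 was called in 5 of 6 adult organs and 5 of 6 P6 organs. In adults it was 2.92 in kidney, 2.36 in brain, 1.68 in heart and 1.57 in lung, and no size is given for adult liver because both liver inputs were at 0. At P6 it was 2.21 in liver, 2.06 in brain, 2.01 in heart, 1.87 in lung and 1.60 in kidney. Adult brain, adult heart and each E12 site had 1 input library, so the fit assumes for these, here and in all own-input calls, that a lone input varies like the other groups. At E12 the difference was called in trunk (2.12) and not in brain (1.29) or heart (1.44). Retina was the organ without a call at both ages. With covered length in place of signal, adult heart was 1.18, P6 heart 1.15 and P6 kidney 0.72, none of them called. The adult heart and lung calls were each lost without endothelial replicate 2 (1.56 and 1.28). Over the 6 members, 10 of 36 own-input differences were called in adults and 8 of 36 at P6, against 11.3% and 10.1% of all windows. Scaled by total tags, the Gata2 liver difference was the 1 call left in adults and no member was called at P6, while the differences averaged over organs stayed called for Gata2 (1.67, 1.66 and 1.49).

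A set of Gata2 regions was common to nearly all endothelial libraries, beside others that differed between organs. Peaks of all libraries were merged into 346278 regions with a peak in at least 2 libraries, and 169 lay in the 6 windows: 17 at Gata1, 23 at Gata2, 28 at Gata3, 42 at Gata4, 27 at Gata5 and 32 at Gata6. At Gata2, 6 of 23 had a peak in at least 34 of 37 endothelial libraries (18 of 23 had one in at least 2), and at each other member 1 or 0 did. These common regions were chosen after their values were seen. The share of all regions that meet the same rule was not counted, so 6 of 23 is a description. The region at chr6:88202837-88203716, inside the gene and starting 8.95 kb after the upstream start, had a peak in 37 of 37 endothelial libraries (15.1 to 73.9 ppm, median 36.6) and in 16 of 29 inputs (0 to 17.8 ppm, median 3.40). It was called higher than the organ's own input in 5 of 6 adult, 4 of 6 P6 and 2 of 3 E12 comparisons, where 2.13%, 4.64% and 6.30% of all regions were called higher than own input in adults, at P6 and at E12. The region was picked by its peaks in endothelial libraries, which favours a call over input. The shares are over regions picked without that rule, so these counts only describe the region. An enhancer inside Gata2 that GATA factors themselves bind is known from blood and endothelial cells; which of these regions holds it was not tested.

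A pair of regions far upstream of Gata2 was less common in inputs. The region at chr6:88151836-88153276, 40.6 kb before the gene, had a peak in 36 of 37 endothelial libraries (median 26.4 ppm) and in 11 of 29 inputs (median 0 ppm), and was called above own input in 4 of 6 adult, 6 of 6 P6 and 3 of 3 E12 comparisons. Both regions of the pair were picked by their endothelial peaks, so these counts too only describe them. The region at chr6:88146627-88148124, 45.8 kb before the gene, had a peak in 36 of 37 endothelial and 13 of 29 input libraries. Its adult values were 86.2 and 127 ppm in lung, 43.9 and 52.8 in kidney, 27.9 and 27.2 in brain, 24.5 and 27.1 in liver, 11.4 and 12.8 in heart, and 9.31 and 0 in retina. The other 3 common regions were chr6:88189278-88191123, chr6:88198004-88198988, which holds the downstream start, and chr6:88242488-88243163, with peaks in 37, 37 and 36 of 37 endothelial libraries.

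Among organs, the Gata2 window was highest in lung at both postnatal ages. Lung endothelial libraries held 328 and 493 ppm in adults and 369 and 329 ppm at P6, and each lay above every endothelial library of the other 5 organs of its age. The log2 difference of lung from the mean of the other 5 organs was 1.30 in adults (SE 0.313, adjusted p = 0.00308) and 1.24 at P6 (SE 0.309, adjusted p = 0.00722). Lung epithelium windows summed to 1170 to 1370 ppm in adult lung endothelial libraries, against 790 to 1220 ppm in those of other organs, with 1 of 8 called higher, where 1.89% of all windows were. At P6 they summed to 1010 to 1080 ppm, against 894 to 1150 ppm, with 0 of 8 called higher. Their part in the lung differences of Gata2, Gata3 and Gata6 was not tested. Adult retina was lower by 1.41 (adjusted p = 0.000385), beside the retinal neuron signal given above. Without adult lung replicate 2 the lung difference was 1.01, and without adult retina replicate 2 the retina difference was -0.89, and neither was called. The P6 lung call was lost without either lung library (1.16 without replicate 1, 1.32 without replicate 2). With covered length in place of signal, the differences were 0.94 and 0.71 for adult and P6 lung and -0.74 for adult retina, none of them called. The region at chr6:88196995-88197736, inside the gene, had a peak in both adult lung endothelial libraries (18.9 and 55.9 ppm) and in 0 of 10 other adult endothelial libraries, with 10.3 and 9.16 ppm in the lung inputs. At P6 it held 17.4 and 15.4 ppm in lung and 11.1 and 10.4 ppm in heart, with 3.88, 3.79 and 4.32 ppm in lung inputs. At E12 it had a peak in 8 of 11 endothelial libraries. The lung difference of this region at P6 was called at 3.41 (limma on log2(ppm + 1) over all regions); no size is given for adults, where the other organs are at 0.

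**Figure D2:**
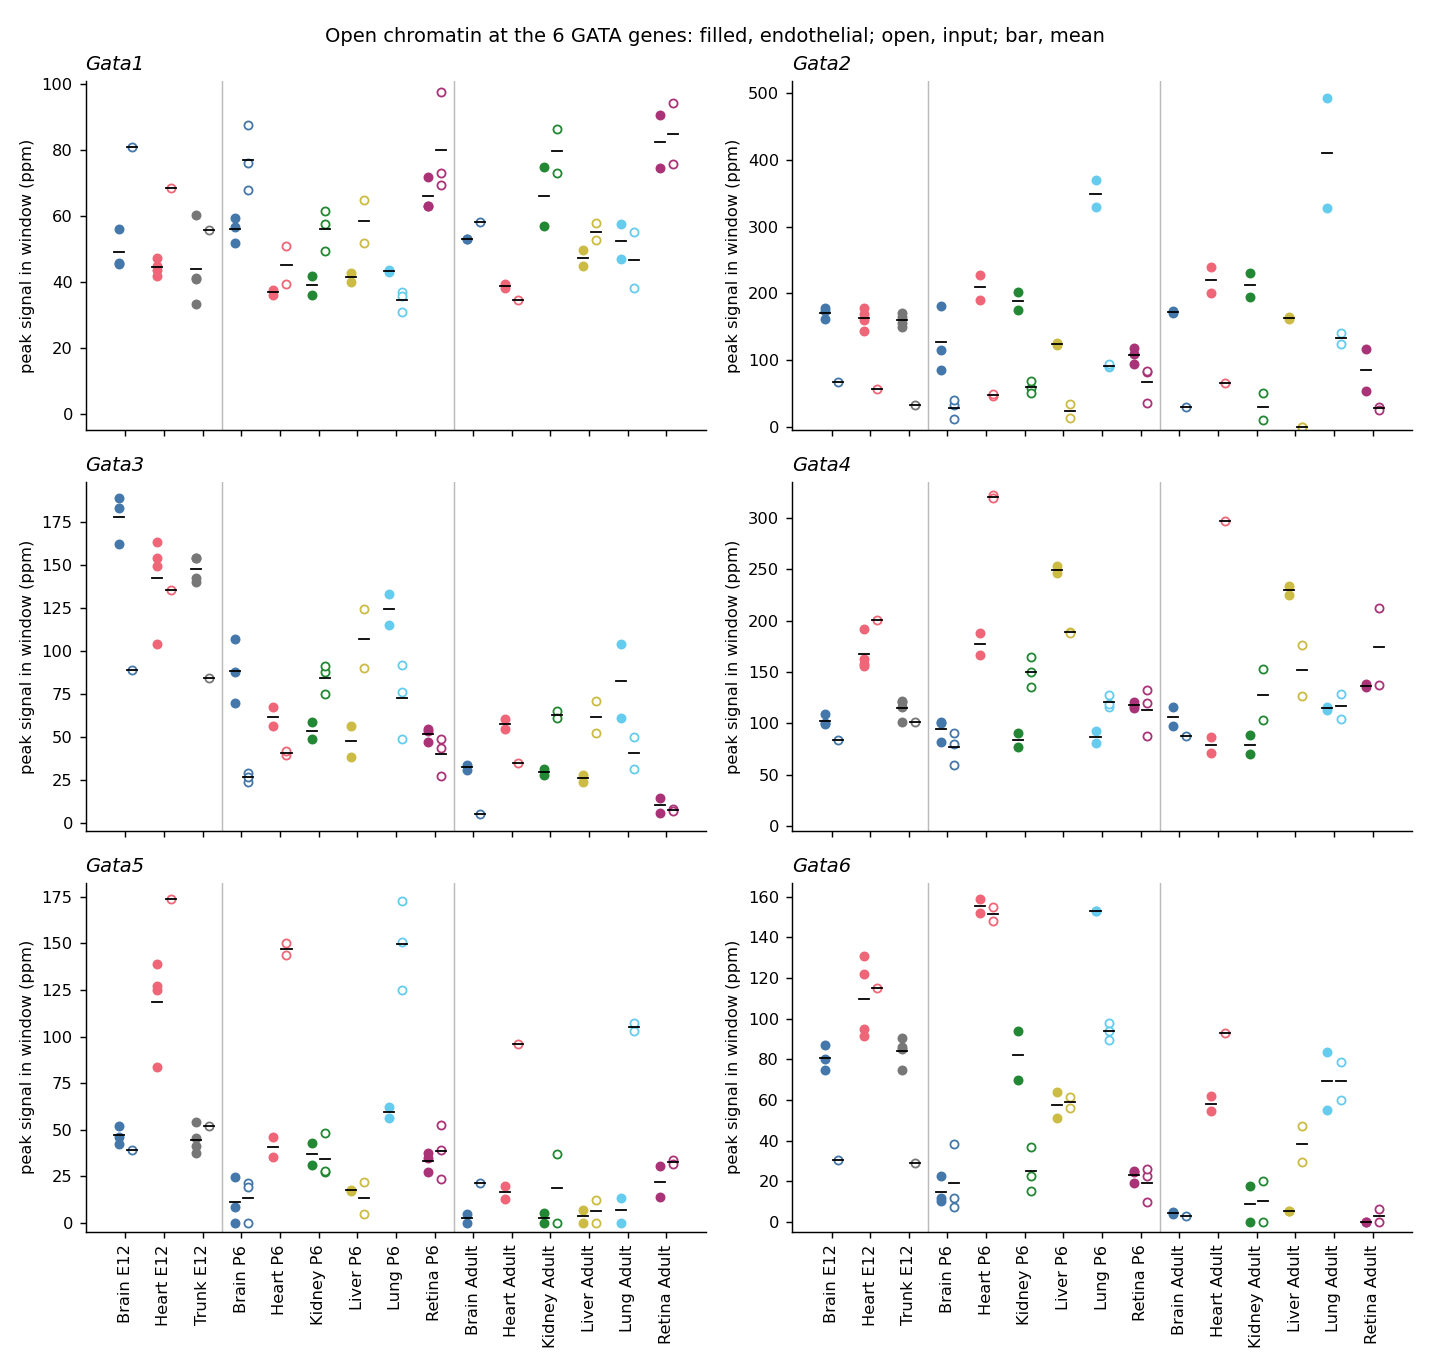
Peak signal (ppm, vertical axes) in the window of each GATA gene, by organ and age; filled points are endothelial libraries, open points inputs, bars the group mean. Gata2 is higher in endothelial than in input libraries at every site, and Gata4 is highest among endothelial libraries in liver, at 225 and 234 ppm in adults.

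The Gata3 window held the most signal at E12 and the least in adults. E12 endothelial windows ran from 104 through a median of 154 to 189 ppm, P6 windows from 38.4 through 57.5 to 133 ppm, and adult windows from 5.69 through 31.0 to 104 ppm. All E12 brain libraries (183, 162 and 189 ppm) lay above all P6 brain libraries (87.8, 69.8 and 107 ppm), and these above the adult brain libraries (33.4 and 30.7 ppm). Retina fell from 53.3, 54.5 and 46.7 ppm at P6 to 14.5 and 5.69 ppm in adults. The retina inputs went from 48.4, 27.1 and 43.5 ppm to 8.0 and 6.98 ppm, while the retinal neuron windows of the endothelial libraries went from 1950 to 2050 ppm at P6 to 3160 to 3360 ppm in adults. The part of retinal neurons in the retina result was not tested. The adult-minus-P6 difference was called in brain (-1.31, SE 0.241, adjusted p = 0.000945) and retina (-1.97, SE 0.241, adjusted p = 1.99e-06), and the P6-minus-E12 difference in heart (-1.13, adjusted p = 0.000476). The retina call was kept in 36 of 36 alternatives, the brain call in 32 of 36 and the heart call in 17 of 22. These counts include leaving out libraries of other organs, which does not change the difference itself. The brain call was lost when scaled by total tags (-1.58) and with an equal number of top peaks (-1.12). The heart call was lost when scaled by total tags (-1.18), with covered length (-0.97) and with a pseudocount of 20 ppm (-0.98). The brain difference was -0.98 in windows of 10 kb and -0.99 with peaks of −log10 q of at least 5, and the heart difference was -0.48 with an equal number of top peaks and -0.92 in windows of 10 kb, none of them called.

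Gata3 was again highest in lung. Lung held 104 and 61.0 ppm in adults and 115 and 133 ppm at P6, a difference from the other organs of 1.40 (adjusted p = 5.28e-06) and 1.02 (adjusted p = 0.000882), and adult retina was lower by 1.68 (adjusted p = 3.14e-08), beside the retinal neuron signal. With covered length in place of signal the retina difference was -0.74 and the P6 lung difference 0.785, and neither was called. The P6 lung call was kept in 14 of 23 alternatives. The P6 lung call did not hold without P6 lung replicate 2 (0.92), nor without any of brain replicate 2, heart replicate 1, kidney replicate 1 or liver replicate 2 (0.97 to 1.00). Relative to own input, brain was called higher (1.87 in adults, 1.55 at P6) and liver lower (-1.10 at both ages). The liver calls were lost without single libraries: -0.89 in adults without input replicate 2, and -0.85 and -0.88 at P6 without endothelial replicate 2 or input replicate 4. In windows of 10 kb they were -0.36 at both ages and not called. The liver inputs held 52 and 70.9 ppm in adults, against 27.8 and 23.8 ppm in endothelial libraries. The region at chr2:9852715-9853780, 3.30 kb outside the gene, had 15.8 and 16.8 ppm in P6 lung endothelial libraries and no peak in the other 12 P6 endothelial libraries, so no size is given for its called difference. All 3 P6 lung inputs also had a peak there (6.40, 6.16 and 3.55 ppm). The region at chr2:9926105-9927667, over Taf3, was higher in P6 brain (15.8, 17.8 and 21.6 ppm, difference 3.28) and lower in E12 heart (difference -2.30).

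The summed Gata1 window was not called in any organ, age or endothelial comparison, while its 17 regions had 5 calls over 15 organ or site comparisons, a share below that of all regions (4.43% in adults, 7.29% at P6 and 8.12% at E12). Its endothelial windows ran from 33.4 ppm at E12 to 90.6 ppm in adult retina. Most of that signal lay outside the gene: the region at chrX:7947369-7948709, over Hdac6, had a peak in 37 of 37 endothelial and 29 of 29 input libraries, with medians of 42.6 and 43.7 ppm. The 1 region at Gata1 that separated an organ at both ages, chrX:7919337-7920556 over Pcsk1n, was higher in retina (17 and 34.7 ppm in adults, 11.2, 12.5 and 9.68 ppm at P6), where the retina inputs held 18.6 and 22.3 ppm in adults.

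Gata4, the liver sinusoidal and endocardial member, was highest in liver. Liver endothelial windows held 225 and 234 ppm in adults and 253 and 246 ppm at P6. The other adult organs held 69.9 to 138 ppm, and none overlapped liver. The difference of liver from the other organs was 1.15 in adults (SE 0.142, adjusted p = 7.85e-08) and 1.18 at P6 (SE 0.140, adjusted p = 8.99e-08). Hepatocyte marker windows summed to 479 and 517 ppm in the adult liver endothelial libraries, between the 260 to 375 ppm of other endothelial libraries and the 2490 to 2810 ppm of the liver inputs. With peaks of −log10 q of at least 5 the adult liver difference was 0.80, and with an equal number of top peaks the P6 one was 0.52, neither of them called. The part of hepatocyte signal in the liver result was not tested by itself, and the regions below give the inputs beside it.

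The regions of Gata4 with the largest liver differences lay inside the gene. Outside it, the region at chr14:63177517-63178694, over Fdft1, had a peak in 37 of 37 endothelial libraries (32.6 to 116 ppm). The region at chr14:63251416-63252029 held 36.5 and 33.6 ppm in adult and 23.2 and 20.5 ppm in P6 liver endothelial libraries. The liver inputs had no peak there at either age, nor had the other 10 adult and 12 P6 endothelial libraries, and it had no peak in any of the 29 inputs. It was called at both ages, but no size or p is given, because the comparison libraries are at 0 and the liver libraries alone brought the region past the filter of 2 libraries. The region at chr14:63255481-63256467 held 56.0 and 37.0 ppm in adult liver endothelial libraries and 0 and 6.32 ppm in the inputs, with 0 of 10 in other organs. The region at chr14:63244705-63246200 was also higher in liver than in other organs (4.35 in adults, 3.21 at P6), but the adult liver inputs held as much, 44.2 and 26.8 ppm against 31.4 and 45.4 ppm. In all, 8 of 42 Gata4 regions were called higher in adult liver and none lower, where 4.43% of all regions were called higher. At P6, 12 were called higher and 1 lower, where 4.01% of all regions were called higher. In 7 of these 8 regions in adults and 3 of the 12 at P6 all endothelial libraries of the other organs were at 0, so these counts describe where liver peaks lie and do not support the window result.

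Heart gave the other changes of Gata4. E12 heart endothelial windows held 163, 192, 158 and 156 ppm, P6 heart 167 and 188 ppm, and adult heart 87.1 and 70.9 ppm. The adult-minus-P6 difference was -1.12 (adjusted p = 5.17e-05), and -0.98 without adult heart replicate 2 and -0.62 with an equal number of top peaks, where it was not called. Inputs of heart held 201 ppm at E12, 322 and 319 ppm at P6 and 297 ppm in adults, so adult heart endothelial libraries lay below their input by 1.85 (adjusted p = 2.58e-07), with 1 input library. Cardiomyocyte marker windows summed to 906 and 926 ppm in adult heart endothelial libraries and 2520 ppm in the heart input, and to 1330 to 1420 ppm in P6 heart endothelial libraries against 3780 to 4060 ppm in inputs. The part of cardiomyocyte nuclei in the P6 heart value was not tested. At P6, 10 of 42 Gata4 regions were called higher in heart and none lower, where 5.54% of all regions were called higher. In 4 of these 10 all endothelial libraries of the other organs were at 0, so this count only describes where heart peaks lie.

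**Figure D3:**
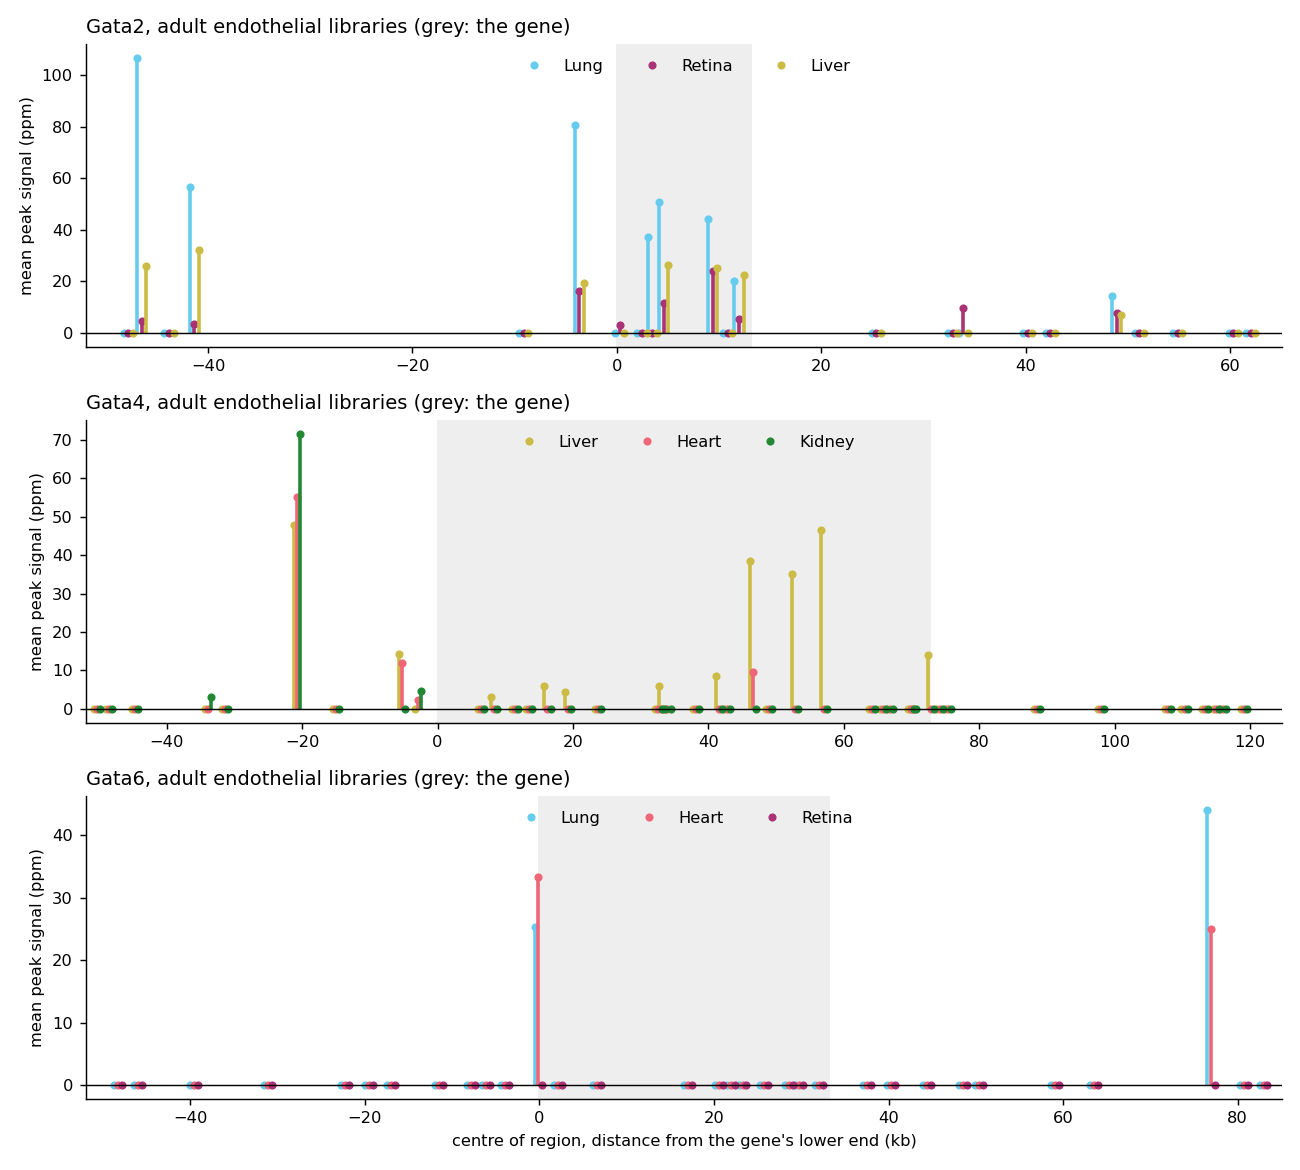
Mean peak signal (ppm, vertical axes) of each merged region in adult endothelial libraries, by distance of its centre from the gene's lower end (kb, horizontal axis) for Gata2, Gata4 and Gata6, in 3 organs each. Regions inside Gata4 carry signal in liver and little in heart or kidney, and the far region at Gata6 carries it in lung and heart only among the 3 organs drawn.

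The Gata5 window was low in adult endothelial libraries and highest in E12 heart. Its adult endothelial windows ran from 0 through a median of 6.19 to 30.4 ppm, and 4 of 12 libraries were at 0. The 4 E12 heart libraries held 83.4 to 139 ppm, and no library of E12 brain or trunk exceeded 53.9 ppm. At P6 lung held 56.4 and 62.1 ppm, heart 45.9 and 35.0, kidney 42.9 and 31.0, retina 37.6, 27.2 and 34.9, and liver 17.8 and 17.2. The window of E12 heart was not called against the other sites. Of 27 Gata5 regions, 7 were called higher in E12 heart and none lower, where 5.91% of all regions were called higher. In 3 of these 7 all endothelial libraries of the other sites were at 0. This count thus describes where heart peaks lie and does not support a window difference. The region at chr2:180339458-180340373 held 12.3, 15.2, 12.5 and 17 ppm in E12 heart, 13.3 ppm in the E12 heart input and no peak in the other 7 endothelial libraries of that age. The E12 heart input held 174 ppm, above all 4 E12 heart endothelial libraries. Heart and lung inputs also carried more than the endothelial libraries later: 144 and 150 ppm in P6 heart inputs, 96.2 ppm in the adult heart input and 103 and 107 ppm in adult lung inputs, against 12.9 and 19.7 ppm and 13.1 and 0 ppm.

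The Gata5 window was lower in adult than in P6 endothelial libraries of kidney (-2.53, adjusted p = 0.0265) and lung (-2.75, adjusted p = 0.00747), and lower at P6 than at E12 in brain (-2.05, adjusted p = 0.0187). Each of these calls was lost when single libraries were left out. The kidney value was -2.0 without adult kidney replicate 1, -2.32 and -2.73 without P6 kidney replicates 1 and 2. The lung value was -1.83 without adult lung replicate 2, -2.82 and -2.69 without P6 lung replicates 1 and 2. The brain value was -1.38 without P6 brain replicate 1, -1.98 and -2.11 without E12 brain replicates 2 and 3. With equally long lists of top peaks, all 3 of these differences were 0. Adult retina was called higher than the other organs by 1.44 (adjusted p = 0.0407, 13.7 and 30.4 ppm), a call kept in 9 of 21 alternatives. The adult retina inputs held 33.4 and 31.6 ppm, and the retinal neuron windows stood at the level of input. P6 brain was called lower by 1.68 (0, 24.6 and 8.30 ppm), a call kept in 17 of 23 alternatives. The difference was -1.01 without P6 brain replicate 1, -0.49 with an equal number of top peaks and -0.925 with a pseudocount of 20 ppm, none of them called.

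Gata6 gave the largest organ differences of the 6 windows, highest in heart and lung. Its E12 endothelial windows ran from 74.9 through a median of 87.2 to 131 ppm. At P6, heart held 152 and 159 ppm, lung 153 and 153, kidney 94.1 and 69.8, liver 64.0 and 50.9, retina 19.2, 25.1 and 24.6, and brain 10.1, 11.5 and 22.5. In adults, lung held 54.9 and 83.7 ppm, heart 54.6 and 61.8, kidney 0 and 17.6, liver 5.32 and 5.15, brain 4.74 and 3.76, and retina 0 and 0. Heart and lung were the 2 highest organs at both ages and did not overlap the other 4.

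Heart was above the other organs by 2.28 in adults (SE 0.405, adjusted p = 6.90e-05) and 1.58 at P6 (SE 0.401, adjusted p = 0.00973). Lung was above them by 2.53 in adults (SE 0.405, adjusted p = 2.10e-05) and 1.56 at P6 (SE 0.401, adjusted p = 0.00910). P6 brain was below them by 2.12 (adjusted p = 2.60e-05), P6 retina by 1.45 (adjusted p = 0.00112) and adult retina by 2.11 (adjusted p = 6.59e-05). Both adult retina libraries were at 0 ppm, so the size of the adult retina value depends on the 5 ppm added. Leaving out either P6 heart library ended the P6 heart call (1.61 and 1.55), and leaving out either P6 lung library ended the P6 lung call (1.56 and 1.56). With covered length in place of signal these P6 differences were 0.88 and 0.68, and P6 retina -0.90, none of them called. With peaks of −log10 q of at least 5, adult lung was 0.60 and adult retina -0.85, neither of them called. Heart and lung inputs were also high in Gata6, at 93.0 ppm in the adult heart input and 59.8 and 78.7 ppm in adult lung inputs. The P6 heart inputs, at 155 and 148 ppm, differed from the heart endothelial libraries by 0.04 on the log2 scale, and 2 of 10 cardiomyocyte genes were called higher in P6 heart than in other endothelial libraries, where 1.48% of all windows were. The P6 lung inputs held 89.6 to 98.0 ppm. The P6 brain inputs held 38.2, 11.5 and 7.47 ppm, and 4 of 11 neural genes were called higher in P6 brain than in other endothelial libraries (summed 700 to 1040 ppm against 427 to 1140), where 2.51% of all windows were. The part of these cells in the Gata6 differences was not tested. The region at chr18:11128887-11130092, 43.3 kb beyond the gene, held 37.4 and 50.7 ppm in adult lung endothelial libraries, 29.3 and 20.6 ppm in adult heart and no peak in the other 8, against 0 and 12.2 ppm in lung inputs. Its lung differences were 4.54 in adults and 3.44 at P6, where lung held 77.1 and 75.7 ppm.

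With age, Gata6 lost signal in several organs. The adult-minus-P6 difference was called in kidney (-3.02, adjusted p = 0.000281), liver (-2.6, adjusted p = 0.00227) and retina (-2.48, adjusted p = 0.000592), and the P6-minus-E12 difference in brain (-2.17, adjusted p = 0.000778). The retina inputs held 22.3, 9.84 and 25.8 ppm at P6 and 0 and 6.15 ppm in adults, beside the change of retinal neuron signal given for Gata3. The kidney difference was -1.93, not called, without adult kidney replicate 1. Scaled by total tags, the kidney difference was -2.81 and the liver difference -2.76, and neither was called. With an equal number of top peaks the retina difference was 0 and the liver difference -1.29, and in windows of 10 kb the liver difference was -1.32, none of them called. With the name ending of the read files, taken as a kind of read processing, as a covariate the brain difference was -1.64 and not called. The region over the lower end of the gene, chr18:11051326-11053474, had a peak in 34 of 37 endothelial and 27 of 29 input libraries and was at 0 in both adult retina libraries. The adult liver window of Gata6 was below its input (-2.06, adjusted p = 0.00178), and the P6 kidney window above it (1.60, adjusted p = 0.0174). The kidney call was kept in 33 of 40 alternatives, which include leaving out libraries of other organs that do not change the difference itself. It was lost without P6 endothelial replicate 1 (1.39) or 2 (1.80) or input replicate 3 (1.35), and in windows of 10 kb (0.96). The kidney call was also lost with a pseudocount of 1 ppm (1.76), scaled by total tags (1.33) and with covered length (1.60). The liver difference was -1.28, not called, with covered length in place of signal.

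Across the family, 9 of 36 member-by-organ differences were called in adults, where 9.98% of all windows were called, and 8 of 36 at P6, where 5.00% were. At E12, 0 of 18 were called by limma, where 0.975% of all windows were called; 3 of the 18 had an unadjusted p under 0.05. With age, 8 of 36 adult-minus-P6 differences were called, all lower in adults, where 4.92% of all windows were called, 4.46% as lower and 0.457% as higher. Of 12 P6-minus-E12 differences 3 were called, all lower at P6, where 7.63% of all windows were called. At single regions, 42 of 1014 organ differences (4.14%) were called in adults, 126 of 1014 (12.4%) at P6 and 52 of 507 (10.3%) at E12, against 4.43%, 7.29% and 8.12% of all regions. With 5 ppm added in place of 1, the counts were 56 of 1014 at P6 and 15 of 507 at E12, where 3.46% and 1.56% of all regions were called. With equally long lists of top peaks they were 27 of 282 and 18 of 141, where 10.6% and 8.17% were. The adult share thus lay at the background, and the window counts are not independent, since 1 organ enters the mean that the others are set against.

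**Figure D4:**
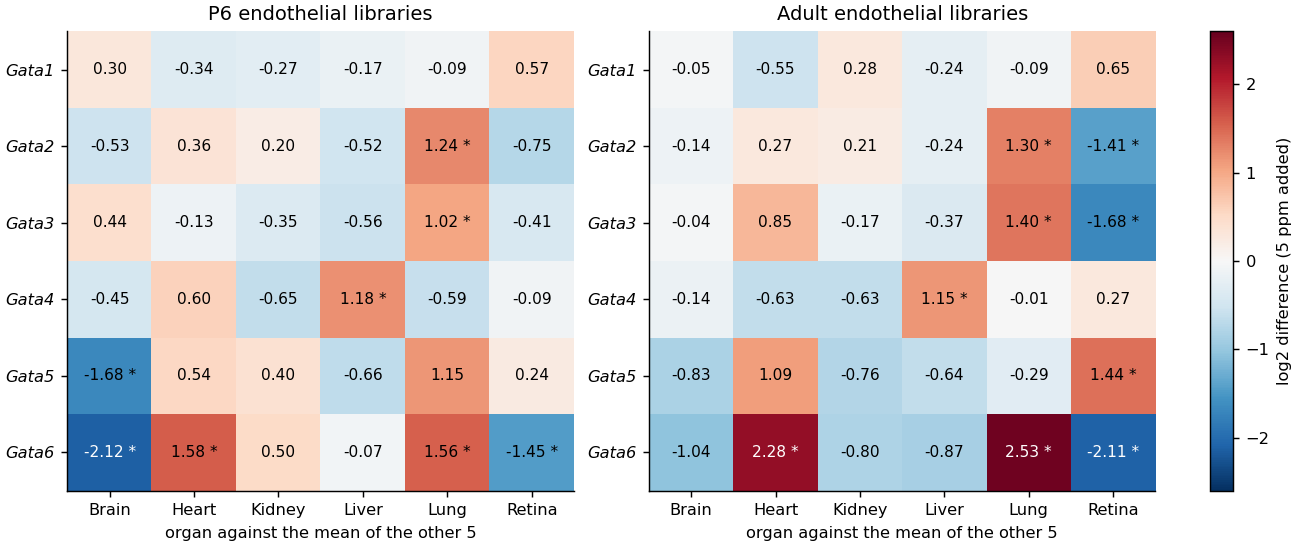
Log2 difference (5 ppm added) of each organ's endothelial window from the mean of the other 5 organs, for the 6 genes at P6 and in adults; colour gives the size, an asterisk a called difference. Gata2, Gata3 and Gata6 are called higher in lung at both ages and Gata4 in liver.

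These organ differences depend on the common scale. Scaled by total tags instead of by total peak signal, 3 of 36 differences were called in adults, where 9.11% of all windows were, and 2 of 36 at P6, where 8.91% were. Of the 9 adult calls above, 1 was kept (Gata5 in retina) and 8 were lost, and of the 8 P6 calls, 1 was kept (Gata6 in brain) and 7 were lost. The median of all genes moved to -0.85 in adult lung, 1.09 in adult retina and 1.00 in P6 retina. The differences themselves were 0.20 in adult lung and -0.28 in adult retina for Gata2, 0.40 and -0.67 for Gata3, and 1.20 and -1.27 for Gata6, none of them called. Relative to those medians, adult Gata2 was 1.05 in lung and -1.37 in retina, Gata3 was 1.25 and -1.76, and Gata6 was 2.05 and -2.37. The kept Gata5 difference in adult retina was 1.66, and only 0.57 relative to the median of 1.09. The kept Gata6 difference in P6 brain was -2.37, and -2.04 relative to a median of -0.33. Gata4 in liver was 1.27 in adults (adjusted p = 0.244), where the median was 0, and 0.88 at P6 (adjusted p = 0.498), and neither was called. The names of the read files in the headers carried 4 different endings. These were the same within an organ in most cases, but differed among the P6 brain endothelial libraries and among the adult lung and adult retina inputs. What steps they stand for is not given in the sources used here. Pairs of organs whose endothelial libraries all had the same ending were compared, a choice made after seeing the data. In these, 11.2% of all windows were called. Gata4 was higher in liver than in kidney (1.48 in adults, 1.52 at P6), and in lung than in retina Gata2 (2.26 and 1.66), Gata3 (2.56 and 1.19) and Gata6 (3.87 and 2.51) were higher.

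Genes that work with GATA factors were read from the same windows. Of 21 cofactors and partners, 4 were called higher and 1 lower in adult endothelial against input libraries, with a median of 0.05 against 0 for all genes, where 2.03% of all windows were called higher and 7.56% lower. The higher ones included the endothelial ETS factors Erg (2.6) and Fli1 (1.81) and the blood and vessel factor Tal1 (1.67), and the lower one was Runx1 (-1.89), a factor of blood formation. In P6 heart, 4 were called higher and none lower, with a median of 0.09 against -0.07, where 1.48% of all windows were called higher. These were Hand2 (3.12), Tbx20 (1.55), Tbx5 (1.39) and Nkx2-5 (1.29), all cardiac factors. Of 10 cardiomyocyte markers, 2 were called higher in the same libraries, at a sum of 1330 to 1420 ppm against 920 to 1270 ppm in endothelial libraries of other organs, and their part in these 4 calls was not tested. In adult liver, Zfpm2 (2.27), which encodes the GATA4 cofactor FOG2, Tbx5 (2.08) and Trps1 (1.30) were called higher and Runx1 lower (-1.94), where 6.00% and 4.86% of all windows were called higher and lower, beside the hepatocyte signal given above.

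Genes of liver sinusoidal endothelium that are tied to GATA4 were called higher in liver. The list holds known genes of this endothelium and was chosen with earlier results of these data known. Its counts in liver thus describe the libraries and do not support the Gata4 result. In adult liver endothelial libraries 13 of 16 were called higher than in the other organs and none lower, with a median of 2.47 against -0.12 for all genes, where 6.00% of all windows were called higher. Hepatocyte markers were also above those of other organs, with 5 of 9 called higher in adults and 4 of 9 at P6. At P6 they summed to 562 to 584 ppm in liver, against 306 to 382 ppm in other endothelial libraries. Their part in these counts, and in the Gata4 liver difference at P6, was not tested. The largest were Tfec (5.30), Fcgr2b (4.90), Bmp2 (4.59) and Wnt2 (4.35), the last 2 being signals that liver endothelium sends to hepatocytes. At P6, 10 of 16 were higher and none lower, with a median of 1.7 against 0, where 3.06% were called higher. In adult heart and adult retina, 8 of 16 were called lower and none higher, where 4.92% and 6.62% of all windows were called lower. Both organs were set against a mean that includes liver, where most of these genes were called higher. The retina libraries also carry the retinal neuron signal given above. The part of either in these counts was not tested. Endothelial genes tied to GATA2, GATA3 and GATA6 were called higher than input for 5, 6 and 8 of 16 in adults, P6 and E12, and lower for 0, 0 and 1, with medians of 0.78, 0.74 and 0.89, where 2.03%, 1.62% and 2.32% of all windows were called higher. They included the angiopoietin receptor Tek (3.05 in adults) and the VEGF receptor Kdr (2.67), and the gene lower at E12 was Vcam1 (-1.44). This list holds known endothelial genes, among them Cdh5, Pecam1 and Kdr, which were also in the check of the labels. Its counts over input thus describe the libraries and are no test of the GATA factors. In adult retina 8 of these 16 were called lower than in other organs, where 6.62% of all windows were, beside the retinal neuron signal given above. Of 10 genes of continuous endothelium, 3, 5 and 3 were called higher than input in adults, P6 and E12 and none lower. Of 8 endocardial genes, 0 were called higher and 2 lower in adult heart, and 1 was called higher in E12 heart (Adgrg6, 1.54), where 4.92% of all windows were called lower in adult heart and 1.34% higher in E12 heart.

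Gata2 transcripts were detected in brain endothelial barcodes at every age, with the highest level in adults. Such barcodes numbered 5644 (E9.5), 6347 (E12.5), 3786 (E16.5), then 4778 for P8 and 3154 for adults, and any 2 libraries shared at most 50 barcodes. With 1 library per age there is no test, the intervals are 95% exact intervals that cover counting error only, and age cannot be told apart from the change of tissue and dissociation between E16.5 and P8. In CPM, the UMIs of a gene in 1000000 UMIs of the barcodes, Gata2 stood at 16.2 CPM (15.0 to 17.4) at E9.5, 32.6 (31.4 to 33.9) at E12.5, 58.1 (55.8 to 60.4) at E16.5, 48.9 (47.2 to 50.7) at P8 and 264 (257 to 271) in adults. The share of barcodes with a Gata2 UMI was 11.7%, 28.0%, 40.3%, 35.5% and 65.6%, although the adult barcodes were the shallowest (median 4896 UMIs, against 7158 to 10469). Thinned to 2000 UMIs per barcode the shares were 2.70%, 6.30%, 11.5%, 9.14% and 36%. In barcodes with none of the 6 endothelial genes Gata2 stood at 4.80, 28.5 (23.4 to 34.4), 0, 15.3 and 10.4 CPM, and at E12.5 the interval overlapped that of the endothelial barcodes. Its share there was 1.43%, 5.60%, 0%, 3.85% and 3.41%, at median depths of 1769, 6496, 5186, 1247 and 2463 UMIs. At E12.5, 17 barcodes with mast cell genes had 637 Gata2 CPM (497 to 805).

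**Figure D5:**
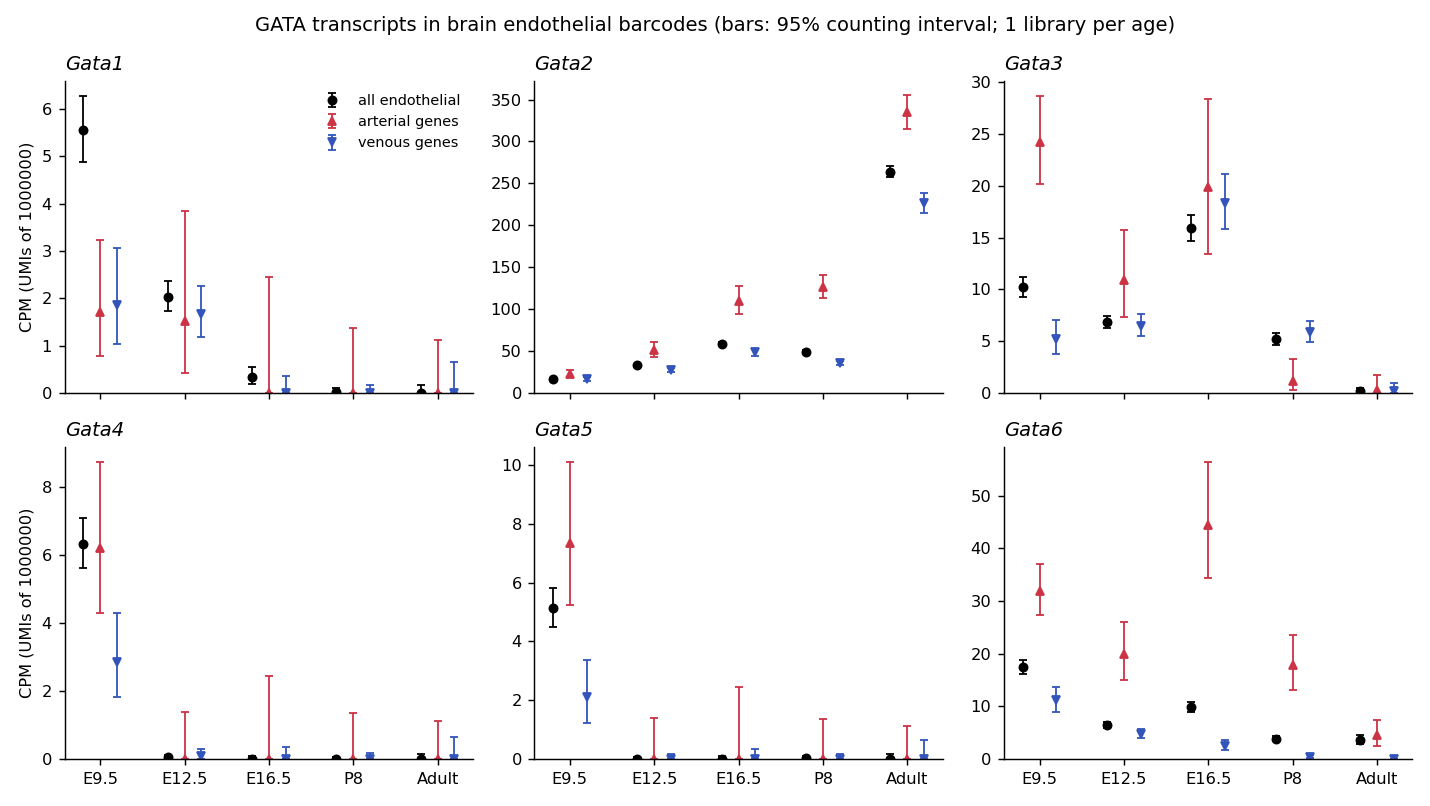
CPM (vertical axes) of each GATA gene in brain endothelial barcodes at 5 ages, for all barcodes (circles) and for those with arterial (upward triangles) or venous genes (downward triangles); bars are 95% counting intervals of 1 library per age. Gata2 is at 264 in adults, and Gata6 lies higher with arterial than with venous genes at each age.

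Gata2 and Gata6 were higher in barcodes with arterial than in those with venous genes, and barcodes of neither class were not compared. An arterial barcode held at least 3 of 9 arterial genes and at most 1 venous gene, and a venous one the reverse. Gata2 stood at 22.3, 51.6, 110, 126 and 335 CPM in arterial barcodes from E9.5 to adult, and at 16.1, 27.3, 48.1, 35.4 and 227 in venous ones. Gata6 stood at 31.9, 19.9, 44.4, 17.8 and 4.53 in arterial barcodes, and at 11.2, 4.73, 2.46, 0.392 and 0 in venous ones. The counting intervals of both genes did not overlap at any age, except for Gata2 at E9.5 (18.4 to 26.7 against 13.5 to 19.2). Arterial barcodes were shallower at each age, with median depths of 5734 to 7364 UMIs against 8284 to 11103. Over all endothelial barcodes Gata6 stood at 17.4, 6.50, 9.89, 3.82 and 3.66. In adults the arterial level of 4.53 lay nearer to this 3.66 than to the venous level of 0. In barcodes with none of the 6 endothelial genes Gata6 stood at 12.3 (8.83 to 16.7), 0.259 (0.00656 to 1.44), 0 (up to 13.1), 12.8 (4.14 to 29.8) and 0 (up to 6.37). At E12.5 the level over all endothelial barcodes lay above that of these barcodes, without overlap of the intervals. At the other ages the intervals overlapped, which is no test, so neither a difference nor equal levels are read there. Barcodes with none of the 6 genes numbered only 51 at E16.5, 130 at P8 and 176 in adults. Such barcodes also hold cells of other types, and free RNA was not measured.

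Gata3 transcripts were low in the adult brain. It stood at 10.2 CPM (9.28 to 11.2) at E9.5, 6.84 (6.28 to 7.44) at E12.5, 15.9 (14.7 to 17.2) at E16.5, 5.16 (4.60 to 5.77) at P8 and 0.172 (0.0469 to 0.44) in adults, where 4 UMIs were counted. In barcodes with none of the 6 endothelial genes it stood at 6.90 (4.38 to 10.4), 6.48 (4.19 to 9.56), 0 (up to 13.1), 0 (up to 9.41) and 3.45 (0.418 to 12.5). These intervals overlapped those of the endothelial barcodes at E9.5, E12.5 and P8 and in adults, and did not overlap at E16.5. Overlap is no test, so neither a difference nor equal levels are read at the ages with overlap. The brain windows of Gata3 in open chromatin had means of 178 ppm at E12, 88.2 ppm at P6 and 32.0 ppm in adults. At E9.5, Gata3 was higher with arterial (24.2) than with venous genes (5.22), and at E12.5, E16.5 and in adults the intervals overlapped. At P8 it was higher with venous (5.83) than with arterial genes (1.11).

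Gata4 and Gata5 UMIs were counted at E9.5 and were few or none at later ages. Gata4 stood at 6.34 CPM (5.63 to 7.11) at E9.5, with 3.95% of barcodes, and at 0.0498 at E12.5. At E16.5, P8 and in adults 0 barcodes had a UMI, which allows shares of up to 0.0792%, 0.0628% and 0.0951% of barcodes with a UMI at these depths, not of cells that express the gene. Gata5 stood at 5.12 at E9.5 and 0.0124 at E12.5. At E9.5, barcodes with none of the 6 endothelial genes held as much, 6.30 CPM for Gata4 and 6.60 for Gata5. Over all endothelial barcodes a level above that of these barcodes was thus not seen. Within the E9.5 endothelial barcodes, those with at least 3 endocardial genes held 12.4 Gata4 CPM (10.8 to 14.3) and 10.8 Gata5 CPM (9.26 to 12.6), and those with none held 3.38 (1.69 to 6.05) and 4.00 (2.13 to 6.83), at median depths of 9557 and 3931 UMIs.

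Gata1 was low in endothelial barcodes. It stood at 5.55, 2.03, 0.33, 0.0165 and 0 CPM from E9.5 to adult. In barcodes without at least 2 marker genes of another cell class it stood at 0.896 and 0.141 at E9.5 and E12.5 and at 0 later. Barcodes with megakaryocyte genes at E9.5, 26 in number, held 135 (77.2 to 219), and 27 with erythroid genes held 40.7 (14.9 to 88.6). Without the mixed barcodes Gata2 stood at 15.6, 28.3, 54.6, 42.0 and 231 CPM. From E12.5 on these lay below the counting intervals over all endothelial barcodes. Leaving out the mixed barcodes moved 17 of 30 levels of the 6 genes beyond their intervals.

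For the 5 members with an organ call, the genes whose windows followed them most closely over the 15 endothelial groups of organ and age were listed among 20156 genes, as a description. For Gata2 they were Itpripl2 (Pearson r = 0.951), Syt17 (0.939) and Tcte2 (0.919). For Gata3 they were Cnih3 (0.924), Cxcr4 (0.913) and Gprc5a (0.902), and for Gata4 they included Spint2 (0.911) and Ttc4 (0.879). For Gata5 they were Fndc9 (0.902), Kcnc2 (0.885) and Gm829 (0.881), and for Gata6 Gsg1 (0.923), Klk12 (0.906) and Klk11 (0.906). Among the members themselves, Gata6 followed Gata3 (0.798) and Gata5 (0.699). The 15 groups share organs, ages, depth and read processing, so these values carry no test.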

How the data were processed

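ATAC-seq (66 libraries), RNA-seq of nuclear RNA (54) and single-cell RNA-seq (5) were deposited. Per the file headers, the authors called broad peaks with MACS2 2.1.2 in each library separately, with no control, tags shifted by -100 bp and extended to 200 bp, and q-values of 0.05 and 0.1. The deposited lists give a signal (mean pileup, unscaled), a fold ratio over local background, which was not used, and −log10 q-values, used in 1 alternative. Bowtie2, SAMtools 1.13, Picard and Cell Ranger are named in the submitters' processing notes, with build mm10. The authors deposited UMI counts of filtered barcodes. The RNA-seq tables list transcripts, for which no pairing with genes was at hand, and were not used here.

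Peak signal times length was summed over each gene and its 50 kb flanks, divided by the library's sum and expressed in ppm. limma 3.58.1 (R 4.3.3) fitted 30 group means with a trend over 21887 genes on log2(ppm + 5), and over 346278 regions on log2(ppm + 1); calls needed an adjusted p under 0.05 and a log2 difference of at least 1. The script was tested on simulated data. Tables were made with Python 3.11.15, pandas 2.3.3, numpy 2.4.6 and scipy 1.17.1. The E16.5 matrix takes its genes from the other tables. Doublets were not called; barcodes with at least 2 genes of another cell class were left out in an alternative. The members and lists were chosen with earlier results of these data known. Named were all 6 genes, per member and age up to 3 regions with the largest called organ differences, up to 4 called genes per list, and the 3 genes with the highest correlation per member. Of these correlated genes, 1 is not reported here. Regions common to at least 34 of 37 endothelial libraries were chosen after their values were seen. No 2 libraries of a group repeated each other: of 49 pairs, at most 0.0557% of peaks were identical. Alternatives were other pseudocounts, scalings, peak sets, windows, a read processing covariate (the ending of the read file's name in the header), a replicate block and leaving out each library.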

Additional observations from a re-analysis of the deposited data

Results flagged for a closer look

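For each of the 6 members, the change between P6 and adult was tested for the difference from input averaged over organs. It was also tested in each of the 6 organs for the difference from the other organs and for that from own input. Of all these tests of the members 3 were called, where 1.09% of all such interactions over genes and comparisons were called. The difference of heart from the other organs in the Gata4 window changed by -1.23 on the log2 scale from P6 to adult (SE 0.199, limma adjusted p = 0.000237): it was 0.60 at P6 and -0.63 in adults. Cardiomyocyte marker windows in the heart endothelial libraries summed to 1330 to 1420 ppm at P6 and 906 to 926 ppm in adults. Their part in this change was not tested. The difference of retina from the other organs in the Gata3 window changed by -1.26 (SE 0.268, adjusted p = 0.0044), from -0.41 at P6 to -1.68 in adults, while the retinal neuron windows in the retina endothelial libraries held 1950 to 2050 ppm at P6 and 3160 to 3360 ppm in adults. The difference of liver endothelial libraries from their own input in the Gata2 window changed by 2.86 (SE 0.571, adjusted p = 0.00232), where the adult inputs were at 0 and 0 ppm and the P6 inputs at 35.0 and 14.2 ppm, so the size of this value depends on the 5 ppm added.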

How the results depend on the processing

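The Gata2 excess over input kept its call in 30, 40 and 21 alternatives in adults, P6 and E12. Other counts moved by more than 1.5 times in some settings. With a pseudocount of 1 ppm, 5 P6 organ calls were left of 8, where 4.93% of all windows were called. With 20 ppm, 1 adult endothelial call of 2 was left and 1 E12 site call appeared, where 3.44% and 0.242% of all windows were called. Scaled by total tags, 3 adult and 2 P6 organ calls, 1 adult and 0 P6 own-input calls and 22 of 42 adult region calls were made. Of all windows, 9.11%, 8.91%, 2.38% and 2.35% were called in these, and of all regions 2.74%. The adult-minus-P6 lung differences turned negative for Gata1 (-1.56), Gata2 (-1.96) and Gata4 (-1.62), where the median of all genes was -1.71. With covered length in place of signal, 3 P6 organ and 5 P6 own-input calls were made, where 3.44% and 6.81% of all windows were called. With 19464 top peaks per library, calls were 2 (P6) and 3 (E12) against input, 5 among P6 organs, 1 among E12 sites and 3 for adult minus P6. Of all windows, 11.3%, 8.53%, 5.93%, 2.47% and 2.08% were called in these. Region calls were 27 at P6 and 18 at E12, where 10.6% and 8.17% of all regions were called. With −log10 q of at least 5, calls were 4 among adult organs, where 7.51% of all windows were called. Region calls were then 21 in adults and 70 at P6, where 3.55% and 7% of all regions were called. With 10 kb windows, calls were 1 against input in adults, 1 among E12 sites and 5 for P6 minus E12, where 10.3%, 0.886% and 7.36% of all windows were called. The Gata4 window in lung turned to -2.80 for adult minus P6. With read processing as a covariate, 1 P6-minus-E12 call was left, where 5.68% of all windows were called. For organ differences, windows and regions alike, that covariate could not be estimated and was not run. With a pseudocount of 5 ppm, 56 P6 and 15 E12 region calls were made, where 3.46% and 1.56% of all regions were called. The cause was not tested in any of these.

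Leaving out 1 library at a time gave 7 to 10 adult and 5 to 8 P6 organ calls (5 without P6 lung replicate 2), 0 E12 site calls, 9 to 12 adult and 7 to 9 P6 own-input calls, 6 to 8 for adult minus P6, 2 to 4 for P6 minus E12, 2, 1 and 1 against input in adults, P6 and E12, and 34 to 43, 110 to 131 and 43 to 72 region calls in adults, P6 and E12. Replicate numbers did not pair the samples over all organs: 8 of 20 pairs of same-numbered libraries had correlated deviations over 0.1 (range -0.411 to 0.37). The kidney pairs lay at 0.255 to 0.345 and the adult liver pairs at 0.197. The fit with the replicate block kept the counts 2, 1 and 1 against input, 9, 8 and 0 among organs, 10 and 8 against own input, 8 and 3 between ages, and all 50 single window results. Groups of 1 to 4 libraries and adult lists of 19464 to 47334 peaks limit what can be detected in low windows such as Gata5.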
